A study of Mus musculus with 4 samples.

Results

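Myc and 6 of its network partners (Mycn, Mycl, Max, Mxd1, Mxd4 and Mxi1), 7 of the 25149 genes found in the tables, were followed across 4 sets of mouse liver nonparenchymal cells. The family was chosen by measured values of its first member: Myc UMIs had been found higher in endothelial cells after carbon tetrachloride (CCl4), and its partners were added by name. The endothelial change of Myc is therefore given as a description with no test. The cells were the nonparenchymal fraction of the liver, profiled by single-cell RNA sequencing on the BD Rhapsody platform. Each value is a count of UMIs, the unique molecules of a gene seen in a cell.

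All 4 mice were wild-type males aged 8 to 10 weeks. The CCl4 group (2 mice) received CCl4, a hepatotoxic solvent whose repeated use scars the liver, mixed 1 to 9 with corn oil and given into the abdomen at 10 µl per g of body weight. The corn oil group (2 mice) received the vehicle. Injections were given 2 times a week for 5 weeks, and livers were taken 48 hours after the last one. The labels give 1 mouse per sample, so the spread below is between mice, and the mouse numbers only name the animals.

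Myc is a transcription factor that binds DNA as a dimer with Max, at the E-box sequence, and raises the expression of genes for ribosome production, metabolism and cell division. Mycn and Mycl are its close relatives and also pair with Max. The Mxd proteins, Mxi1 among them, compete for Max and repress the same kind of site, so the network is usually read as a balance between activators and repressors. In liver, Myc is best known as an early response gene of regenerating and injured tissue.

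Cells were sorted in silico by the UMIs of a few genes. A cell was in the endothelial gate with at least 5 UMIs of Kdr, Ptprb and Egfl7 summed, in the stellate gate with at least 5 of Reln, Colec11 and Lrat, in the Kupffer gate (resident macrophages) with at least 5 of Clec4f, and in the monocyte gate with at least 3 of Chil3, F13a1 and Vcan and at most 2 of Clec4f. Of 27091 deposited cells 25861 passed the quality filters, 20685 fell in 1 gate, 2345 fell in more than 1 gate and were dropped, and 2831 fell in none. Values are given throughout for the corn oil mice 1 and 2 and then the CCl4 mice 1 and 2. In that order the endothelial gate held 5287, 5370, 3085 and 2795 cells, the stellate gate 179, 145, 462 and 144, the Kupffer gate 217, 222, 228 and 225, and the monocyte gate 43, 23, 911 and 1349. The 8 endothelial markers summed to 16768 to 24784 CPM in the endothelial gate and to 115 to 1033 CPM in the other gates. In the other 3 gates the gate's own markers likewise had the highest sum. Kupffer markers in the monocyte gate summed to 3889 to 6287 CPM in corn oil mice and 909 to 1101 CPM in CCl4 mice. Of the 14415 and 21483 CPM of monocyte markers in the corn oil monocyte gate, the gene Lyz2 gave 11540 and 18667 CPM. Lyz2 also stood at 5438 and 7321 CPM in the Kupffer gate of these mice. The 8 stellate markers in the monocyte gate summed to 1840, 23.2, 282 and 200 CPM. Of the 1840 CPM in corn oil 1, the gene Dcn gave 1783 CPM. The part of macrophage-like cells or stellate RNA in the differences of the monocyte gate was not tested. Cells of the CCl4 mice were deeper, with medians of 5325, 4441, 6793 and 6036 UMIs per cell over all kept cells (the monocyte gate was the reverse, at 11013, 8491, 5616 and 5319) and totals of 50422053, 51752732, 55529871 and 45408857 UMIs as deposited. The CCl4 1 table came from a pipeline run of its own, which cannot be told apart from that mouse.

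Expression is given as CPM, the UMIs of a gene summed over the cells of a gate in a mouse, per 1000000 UMIs of that sum, with a composition factor. The factor was set within each gate, so levels in different gates are on separately scaled tables. A difference between groups is a log2 fold change, CCl4 over corn oil, from edgeR's quasi-likelihood test on the summed UMIs, and the word called marks an adjusted p (Benjamini-Hochberg over all genes of the gate) under 0.05.

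Myc was low in endothelial cells of corn oil mice and the highest of the 4 gates in 1 CCl4 mouse. The endothelial gate had 14.4 and 14.8 CPM in the corn oil mice and 184 and 87.5 CPM in the CCl4 mice. Both CCl4 mice lay far above both corn oil mice, and CCl4 1 lay well above CCl4 2. The means were 14.6 ± 0.267 CPM (SD, n = 2) and 136 ± 68.1 CPM (SD, n = 2), a difference of 3.22 on the log2 scale (SE 0.346) or 9.32-fold. Without CCl4 1, the mouse with the separate pipeline run, the difference was 2.57.

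**Figure D1:**
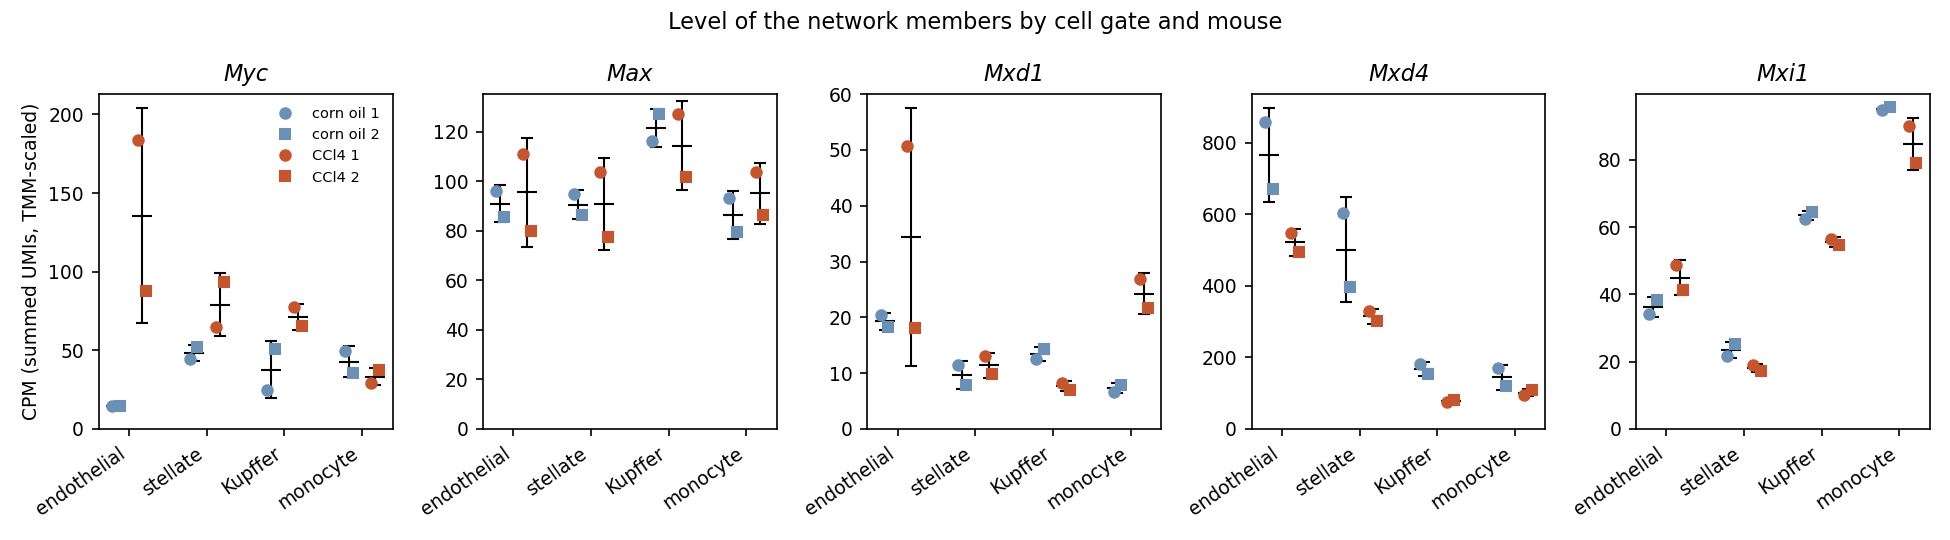
CPM of Myc, Max, Mxd1, Mxd4 and Mxi1 (one panel each, vertical axes from 0 and scaled separately) in the 4 gates. Points are single mice (blue corn oil, orange CCl4; circles mouse 1, squares mouse 2), and black bars are the mean ± SD of 2 mice. Myc in the endothelial gate goes from 14.4 and 14.8 CPM to 184 and 87.5 CPM, and Mxd4 is lower in both CCl4 mice in every gate.

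The endothelial difference was spread over many cells. With all UMIs counted, 4.97%, 4.64%, 53.9% and 32.6% of endothelial cells held a Myc UMI. The CCl4 cells were deeper (medians of 5194, 4243, 6778 and 6148 UMIs), so every cell was also thinned to 1500 UMIs. The shares were then 1.87% (95% exact binomial interval 1.52 to 2.28), 1.56% (1.25 to 1.93), 19.9% (18.5 to 21.4) and 10.7% (9.59 to 11.9). Both CCl4 mice were again above both corn oil mice, and CCl4 1 was above CCl4 2. These intervals cover counting error only.

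Before thinning, cells that held Myc also held more Myc UMIs in the CCl4 mice. A Myc-positive endothelial cell had 1.63 and 1.53 Myc UMIs in the corn oil mice and 2.67 and 1.94 in the CCl4 mice. The part of the greater depth of the CCl4 cells in these values was not tested. At least 5 Myc UMIs were found in 8 and 7 cells of the corn oil mice, while CCl4 1 had 211 cells with 5 to 9 and 30 with 10 or more, and CCl4 2 had 52 and 3. The tenth of endothelial cells richest in Myc held 43.2% of its UMIs in CCl4 1 and 56.0% in CCl4 2, and the rest lay in other cells.

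**Figure D2:**
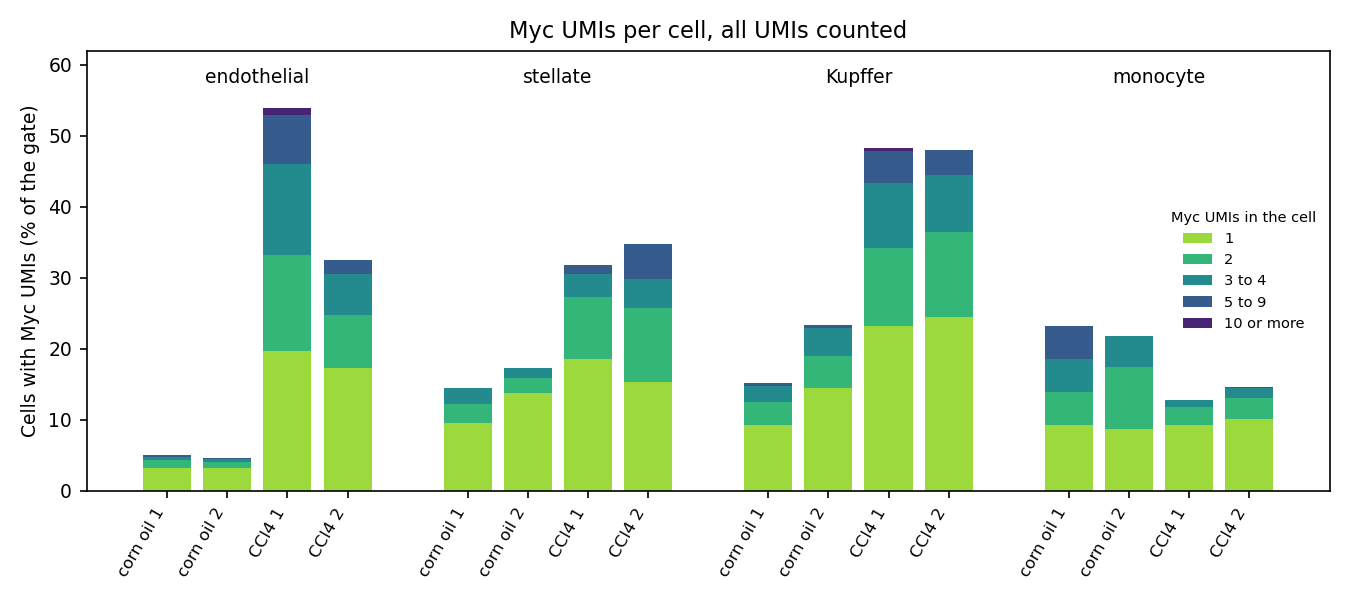
Percent of the cells of each gate and mouse with 1, 2, 3 to 4, 5 to 9, and 10 or more Myc UMIs, stacked, with all UMIs counted and no thinning. Endothelial bars reach 4.97% and 4.64% in corn oil mice and 53.9% and 32.6% in CCl4 mice, and the Kupffer bars of the CCl4 mice come from the deepest cells.

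Myc was higher in the CCl4 mice in each of 3 sets of endothelial cells split by zonal marker genes. Endothelial cells with at least 2 UMIs of Wnt2, Wnt9b, Rspo3 and Cdh13 and none of Dll4, Efnb2, Ltbp4 and Msr1 were taken as pericentral, and the reverse as periportal. Myc in the pericentral cells was 15.7, 10.3, 169 and 79.8 CPM, on 252, 229, 102 and 74 cells. Periportal cells had 14.7, 12.2, 172 and 90.9 CPM. The remaining endothelial cells had 13.7, 16.1, 193 and 93.6 CPM. Within a mouse the 3 sets were close, and the gap between the groups was present in each. Periportal cells made up 31.3%, 41.6%, 52.3% and 61.3% of the gate and pericentral cells 4.77%, 4.26%, 3.31% and 2.65%. Whether the markers picked like cells in both groups was not tested. These are again endothelial Myc values, by which the family was chosen.

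In the stellate gate, whose cells store vitamin A and make scar matrix when activated, Myc was 44.5, 51.8, 65.0 and 93.1 CPM. Both CCl4 mice were above both corn oil mice, but the difference of 0.70 on the log2 scale (SE 0.260) did not pass edgeR's quasi-likelihood test (adjusted p = 0.129). Thinned shares of stellate cells with a Myc UMI were 6.70%, 4.14%, 7.58% and 14.6%. The summed B cell markers (4 genes) in this gate ran from 74.8 to 1416 CPM in the corn oil mice. In the CCl4 mice they ran from 7.37 to 16.2 CPM. The gene Ighm alone gave 1380 CPM of the sum in corn oil 1. Cd79a, Cd79b and Ms4a1 were 25.2, 8.01 and 2.29 CPM there and 33.7, 8.80 and 5.87 CPM in corn oil 2. The part of these markers in the Myc level was not tested.

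In the Kupffer gate Myc was 24.7, 50.5, 77.3 and 65.3 CPM. The groups did not overlap, and the log2 difference of 0.94 (SE 0.290) missed the threshold of edgeR's quasi-likelihood test (adjusted p = 0.0572). The call turned on the settings: without corn oil 2, the higher control, it was 1.53 (adjusted p = 0.0010), and without corn oil 1 it was 0.52 (adjusted p = 0.160). With every cell thinned to 1500 UMIs the log2 difference was 0.44 (adjusted p = 0.601) and the shares with a Myc UMI, 4.61%, 6.76%, 11.8% and 5.78%, overlapped. Kupffer cells of the CCl4 mice had medians of 13570.5 and 14622 UMIs against 8689 and 7502, and the part of this depth gap in the CPM was not tested. Clec4f, the gene that sets this gate, was 5698 and 4710 CPM in the corn oil mice and 2048 CPM in CCl4 1. Whether a cut of 5 Clec4f UMIs took in like cells in both groups was not tested.

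In the monocyte gate Myc was 49.9, 35.8, 29.4 and 37.2 CPM, and the groups overlapped. The log2 difference was -0.42 (SE 0.289, adjusted p = 0.422 by edgeR's quasi-likelihood test). The corn oil values rest on 30 and 9 UMIs. Here the corn oil cells were the deeper ones, and with every cell thinned to 1500 UMIs the log2 difference was 0.02.

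The order of the gates by Myc thus differed between the groups. In corn oil mice the means were 48.2 ± 5.17 CPM in the stellate, 42.8 ± 9.92 in the monocyte, 37.6 ± 18.2 in the Kupffer and 14.6 ± 0.267 in the endothelial gate (SD, n = 2 each). The first 3 overlapped between mice, and the endothelial gate lay below them all. In CCl4 mice the means were 136 ± 68.1 CPM in the endothelial, 79.1 ± 19.9 in the stellate, 71.3 ± 8.48 in the Kupffer and 33.3 ± 5.53 in the monocyte gate (SD, n = 2 each). There the neighbours endothelial and stellate, and stellate and Kupffer, overlapped, while both monocyte values were below all others. The gates were cut from the counts themselves, so no test was made between them, and a summed level cannot tell fewer Myc-positive cells from less Myc RNA per cell.

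Cells outside the gates carried Myc as well. In cells of no gate Myc was 41.9, 67.9, 41.7 and 57.6 CPM, and the groups overlapped. Cells of no gate with at least 2 UMIs of T and NK cell markers, and under 2 of B cell, neutrophil and dendritic markers, had 53.7, 82.2, 87.3 and 104 CPM on 155, 217, 37 and 53 cells. The tables hold free RNA, and no gate is known to lack Myc. The lowest shares seen were the 1.87% and 1.56% of corn oil endothelial cells.

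Mycn and Mycl, the 2 other activators, were low in the gates. In the endothelial gate Mycn was 0.705, 0.619, 1.24 and 0.644 CPM and Mycl 0.739, 0.542, 0.290 and 0.594 CPM, with overlap in both. Neither log2 difference was called (Mycn 0.52, adjusted p = 0.587; Mycl -0.56, adjusted p = 0.609, edgeR's quasi-likelihood test). In the other gates both were under the filter on low counts and were not tested. There the stellate Mycn was 11.4, 9.42, 5.10 and 3.27 CPM on 10, 6, 20 and 4 UMIs, lower in both CCl4 mice without overlap, and the thinned shares of stellate cells with an Mycn UMI overlapped.

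Outside the gates Mycl was highest in cells with dendritic markers, among the marked sets compared. In cells of no gate it was 33.1, 19.9, 14.96 and 14.7 CPM. Cells of no gate that carried at least 2 UMIs of the dendritic markers Xcr1, Clec9a, Flt3, Siglech and Ccr7, and under 2 of the T and NK cell, B cell and neutrophil markers, had 111, 149, 29.7 and 58.2 CPM of Mycl. They numbered 36, 27, 133 and 99 cells, which were 7.26%, 4.47%, 14.7% and 12.0% of the cells of no gate. They held 22, 20, 23 and 34 Mycl UMIs, 26.5%, 31.7%, 23.2% and 38.2% of the Mycl UMIs in cells of no gate. Most Mycl UMIs in cells of no gate thus lay in other cells. Cells marked as T and NK held 0 Mycl UMIs in all 4 mice. Mycl is known as the Myc gene of dendritic cells, in which Myc itself is low, and Myc in these cells was 20.1, 22.3, 22.0 and 32.5 CPM. Mycl was lower in both CCl4 mice, but the dendritic markers pool several subtypes whose mix was not compared, and no test was made.

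Max, the shared partner, had CPM values that overlapped between the groups in all 4 gates. In the endothelial gate it was 96.2, 85.7, 111 and 79.9 CPM, in the stellate gate 94.7, 86.4, 104 and 77.6, in the Kupffer gate 116, 127, 127 and 102, and in the monocyte gate 93.1, 79.6, 104 and 86.5. The log2 differences were 0.07, 0.02, -0.09 and 0.12 in that order of gates, with standard errors of 0.165 to 0.220 and adjusted p-values of 0.767 to 0.968 (edgeR's quasi-likelihood test). The sign of the endothelial, stellate and Kupffer values changed under at least 1 alternative setting. The thinned share of Kupffer cells with a Max UMI was 17.5%, 16.7%, 15.8% and 11.6%, lower in both CCl4 mice without overlap (exact two-sided permutation p = 0.333, the smallest this design allows).

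Mxd4, a repressor that dimerizes with Max, had a lower CPM in both CCl4 mice in every gate. In the Kupffer gate it was 181, 154, 74.7 and 80.2 CPM. The groups were far apart, and the mice of a group were close to each other. Kupffer Mxd4 fell by 1.11 on the log2 scale (SE 0.157, 2.17-fold lower), with an adjusted p of 0.00305 by edgeR's quasi-likelihood test. It was called in each of the 12 alternative settings run, with log2 differences from -1.44 to -0.97. The share of Kupffer cells with an Mxd4 UMI after thinning was 22.1%, 19.4%, 10.1% and 8.44%, again without overlap.

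Endothelial Mxd4 was 859, 672, 549 and 494 CPM, a log2 difference of -0.55 (SE 0.160, adjusted p = 0.0966). Stellate Mxd4 was 605, 397, 329 and 301 CPM, a log2 difference of -0.67 (SE 0.223, adjusted p = 0.0950). In the monocyte gate it was 170, 119, 94.5 and 109 CPM, a log2 difference of -0.54 (SE 0.225, adjusted p = 0.212). After thinning the monocyte log2 difference was -0.14 (adjusted p = 0.930), and the shares of monocyte gate cells with an Mxd4 UMI, 18.6%, 13.04%, 14.4% and 14.8%, overlapped. None of the 3 CPM differences passed edgeR's quasi-likelihood test, although the groups did not overlap in any of them. Among all genes 54.7%, 55.9% and 55.3% did not overlap in these gates. In the endothelial gate the call depended on the setting, with an adjusted p of 0.0254 by DESeq2, 0.0055 with no filter on low counts and 0.0484 without corn oil 2. The stellate value was called without corn oil 2 (adjusted p = 0.0050).

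The order of gates for Mxd4 was endothelial, stellate, Kupffer and monocyte in corn oil mice, at 765 ± 132, 501 ± 147, 168 ± 19.3 and 144 ± 35.4 CPM (SD, n = 2 each). Endothelial and stellate levels did not overlap, while Kupffer and monocyte levels did. Endothelial markers in the Kupffer gate stood at 3.61%, 3.19%, 3.09% and 3.29% of their level in the endothelial gate, while Mxd4 stood at 21.5%, 22.2%, 13.7% and 16.002%. The markers did not move alike. Cdh5 made up the largest part of the sum, at 369, 309, 256 and 282 CPM in the Kupffer gate. Kdr was lower there in both CCl4 mice, at 0.777%, 0.750%, 0.329% and 0.346% of its level in the endothelial gate, and so was Ptprb, at 0.856%, 1.05%, 0.336% and 0.337%. The part of endothelial RNA in the Kupffer Mxd4 difference was not tested.

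The promoter windows of Mxd4 and Max are shown because they were the member windows that held the E-box CACGTG, the site that Myc, Mxd and Max dimers are known to bind. Windows ran from 250 bases before to 10 bases after a RefSeq gene start (GRCm38.p6), and 6 of the 7 members matched, all but Myc, with 8 windows. CACGTG reads the same on both strands and was found in 2084 of 32851 windows of this length (6.34%). The Mxd4 window is chr5:34187701-34187960 and the Max window chr12:76962239-76962498, both on the minus strand. Sequences run 5′ to 3′, and capitals mark the E-box.
Mxd4: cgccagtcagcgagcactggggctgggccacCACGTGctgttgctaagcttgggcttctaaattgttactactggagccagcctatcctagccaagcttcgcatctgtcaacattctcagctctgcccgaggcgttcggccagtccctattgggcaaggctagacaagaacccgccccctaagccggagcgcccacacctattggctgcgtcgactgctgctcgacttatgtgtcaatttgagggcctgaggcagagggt
Max: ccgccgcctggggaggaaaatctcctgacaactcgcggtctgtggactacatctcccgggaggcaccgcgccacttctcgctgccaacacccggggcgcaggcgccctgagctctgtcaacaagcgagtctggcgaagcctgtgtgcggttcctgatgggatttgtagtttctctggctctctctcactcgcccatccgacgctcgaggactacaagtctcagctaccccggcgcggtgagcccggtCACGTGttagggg
The Mxd4 match begins 219 bases before the RefSeq start, and the Max match begins 3 bases before its RefSeq start and spans it. In another annotation, GENCODE vM21, Max starts at chr12:76962201, outside this window. The windows of Mycn, Mycl, Mxd1 and Mxi1 did not hold these letters. A match describes the sequence and does not show binding.

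Mxd1, the founding Mxd repressor, known for rising as myeloid cells mature, differed in sign between gates. In the endothelial gate it was 20.4, 18.2, 50.8 and 18.1 CPM, so that CCl4 1 alone stood above the rest. The log2 difference of 0.84 (SE 0.424, adjusted p = 0.291) became -0.11 without CCl4 1 and 1.40 (adjusted p = 0.0265) without CCl4 2. It was 0.83 and called (adjusted p = 0.00031) when genes of low count were kept in the fit. In the stellate gate it was 11.4, 7.85, 13.01 and 9.80 CPM, with overlap (log2 difference 0.26, adjusted p = 0.780).

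Kupffer Mxd1 was 12.6, 14.4, 8.30 and 7.02 CPM. Both CCl4 mice were lower, at a log2 difference of -0.81 (SE 0.335, adjusted p = 0.134 by edgeR's quasi-likelihood test). In the monocyte gate it was 6.65, 7.96, 26.9 and 21.6 CPM, with both CCl4 mice higher at a log2 difference of 1.77 (SE 0.438, adjusted p = 0.0818). It was 1.92 and called with no filter on low counts (adjusted p = 0.0057), and 1.28 (adjusted p = 0.245) without the cells richest in UMIs. The corn oil monocyte values rest on 4 and 2 UMIs. After thinning, 0 of 43 and 0 of 23 corn oil cells held Mxd1, which allows shares of up to 6.98% and 13.04% (3 counts of the cells, a limit on cells with a UMI and not on cells that express the gene). The CCl4 mice had 3.95% and 3.56%, so a difference in shares was not detectable at this depth. Before thinning the shares were 9.30%, 8.70%, 10.9% and 9.12%. Neutrophil markers in the monocyte gate summed to 30.9 to 38.7 CPM in corn oil mice and 427 to 653 CPM in CCl4 mice, and in the endothelial gate they were 5.57 to 15.1 and 57.1 to 61.97 CPM. Their part in the Mxd1 values was not tested.

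The difference between gates was tested as an interaction of gate and treatment with mouse as a block, over all genes of 2 gates. Over the 6 pairs of gates 27 member comparisons were made (Myc was left out where the endothelial gate took part), and 2 were called, both for Mxd1. The Kupffer difference minus the endothelial one was -1.57 on the log2 scale (SE 0.404, adjusted p = 0.0395). The monocyte difference exceeded the Kupffer one by 2.63 (SE 0.538, adjusted p = 0.0199). Among all genes 7.07% and 11.9% were called in these pairs, and 2.39%, 4.13%, 2.08% and 1.67% in stellate minus endothelial, monocyte minus endothelial, Kupffer minus stellate and monocyte minus stellate. Neither Mxd1 call was stable: the first was -0.75 (adjusted p = 0.430) without CCl4 1, and was also lost without corn oil 1 (0.0650) and corn oil 2 (0.154). The second stayed between 2.47 and 2.59 with any 1 mouse left out but was called in 1 of these 4 fits, with adjusted p-values from 0.0186 to 0.222.

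The Myc effect in the monocyte gate minus that in the Kupffer gate was -1.43 on the log2 scale (adjusted p = 0.0884 by edgeR's quasi-likelihood test). It was called without corn oil 2 (-2.09, adjusted p = 0.0067) and with no filter on low counts (-1.52, adjusted p = 0.00077), and was -0.63 (adjusted p = 0.505) without corn oil 1. The monocyte minus stellate value for Myc was -1.07 (adjusted p = 0.163), and was called without corn oil 2 (-1.32, adjusted p = 0.0480).

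Mxi1, the Mxd repressor also called Mxd2, was not called in any gate. Endothelial Mxi1 was 34.2, 38.4, 48.7 and 41.3 CPM, higher in both CCl4 mice by 0.31 on the log2 scale (SE 0.151, adjusted p = 0.274). The stellate gate had 21.7, 25.1, 18.9 and 17.2 CPM (log2 difference -0.35, adjusted p = 0.563), the Kupffer gate 62.5, 64.3, 56.5 and 54.6 CPM (-0.19, adjusted p = 0.490), and the monocyte gate 94.7, 95.6, 90.0 and 79.1 CPM (-0.17, adjusted p = 0.630). The groups did not overlap in any gate, where 54.7% to 60.8% of all genes did not overlap. None of the differences passed edgeR's quasi-likelihood test. Thinned shares of cells with an Mxi1 UMI kept these directions without overlap in the endothelial and monocyte gates and overlapped in the stellate gate. In the Kupffer gate the shares were 9.22%, 7.66%, 10.5% and 9.78%, higher in both CCl4 mice. The thinned Kupffer log2 difference was 0.25 (adjusted p = 0.689, edgeR's quasi-likelihood test). In corn oil mice the 4 gates stood apart without overlap, in the order monocyte, Kupffer, endothelial and stellate, at 95.1 ± 0.571, 63.4 ± 1.28, 36.3 ± 2.98 and 23.4 ± 2.43 CPM (SD, n = 2 each). That order held in CCl4 mice.

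**Figure D3:**
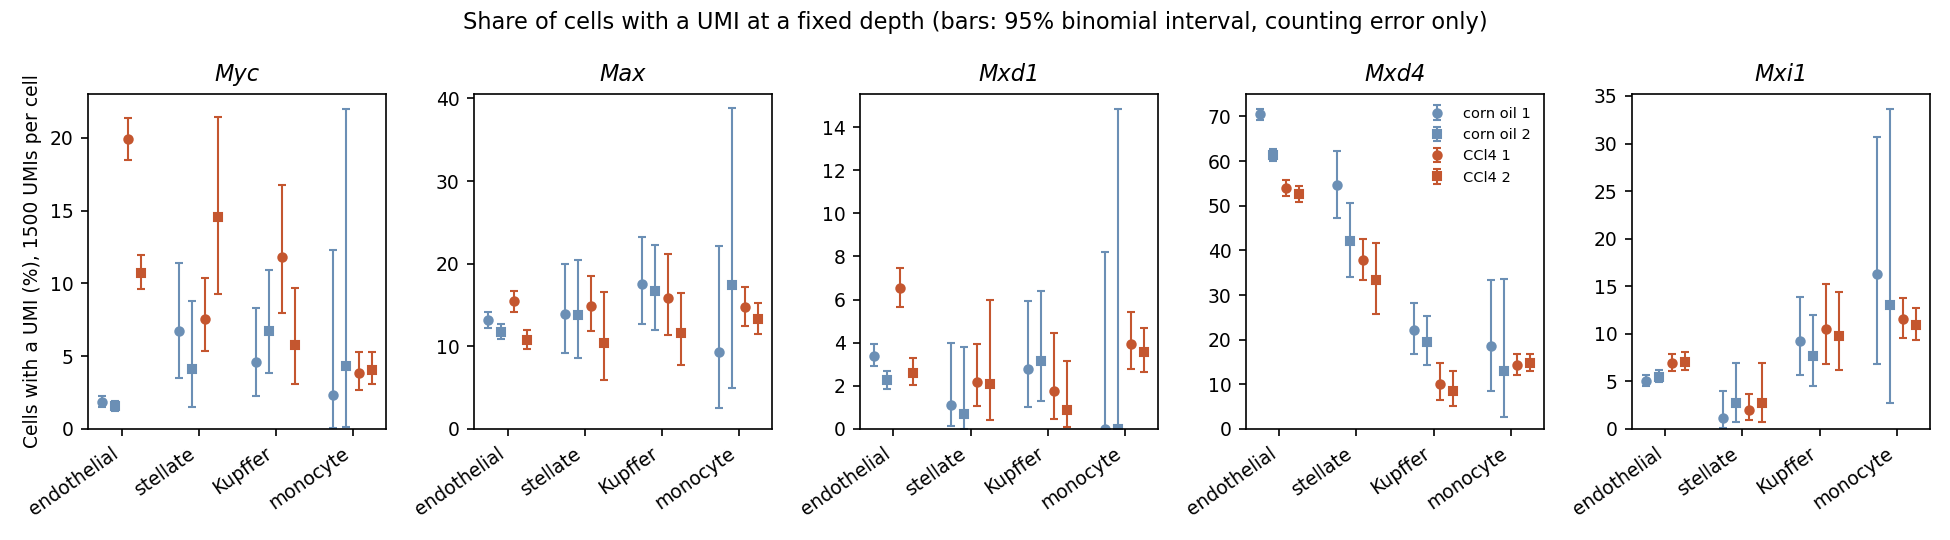
Percent of cells with at least 1 UMI of each member after thinning every cell to 1500 UMIs, by gate and mouse (blue corn oil, orange CCl4; circles mouse 1, squares mouse 2), with 95% exact binomial intervals for counting error only. The Mxd4 shares of Kupffer cells are 22.1% and 19.4% in corn oil mice and 10.1% and 8.44% in CCl4 mice, and the corn oil monocyte intervals are wide because they rest on 43 and 23 cells.

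Counted over the members with a test (Myc in the endothelial gate left out), edgeR's quasi-likelihood test called 0 of 6 in the endothelial gate, 0 of 5 in the stellate gate, 1 of 5 in the Kupffer gate and 0 of 5 in the monocyte gate. Among all genes 5.42%, 10.2%, 15.3% and 5.47% were called. At an unadjusted p under 0.05 the member counts were 1, 2, 3 and 1, beside 23.8%, 25.9%, 31.5% and 24.3% of all genes. DESeq2 called 1, 0, 1 and 0 members, beside 11.5%, 6.78%, 8.8% and 8.86% of all genes. The mice of the 2 groups did not overlap for 2, 3, 4 and 3 of these members, beside 54.7%, 55.9%, 60.8% and 55.3% of all genes in either direction. In the Kupffer gate 1 of the 4 was higher and 3 lower, where 30.3% of all genes were higher and 30.4% lower without overlap. All 7 members passed the filter on low counts in the endothelial gate, and all but Mycn and Mycl in the others. An exact two-sided permutation test of the thinned shares cannot go below p = 0.333 with 2 mice against 2.

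The other genes of the network were Mnt, Mga and Mxd3 (further Max partners), Mlx, Mlxip and Mlxipl (the parallel sugar-sensing arm) and Pvt1, a long noncoding RNA gene next to Myc. Myc lies on chr15:61985391-61990374 and Pvt1 on chr15:62037986-62378096, both on the plus strand (GRCm38, GENCODE vM21). In the endothelial gate 1 of 7 rose and 1 fell, where 2.85% of all genes rose and 2.57% fell. With all mice kept, each of the 8 alternatives called 1 higher, and 0 to 2 were called lower. Neither direction kept a call in every fit that left out 1 mouse. Pvt1 rose from 1.34 and 1.12 to 4.44 and 4.46 CPM (log2 1.84, adjusted p = 0.0241), and Mlxip fell from 187 and 153 to 109 and 90.2 CPM (log2 -0.77, adjusted p = 0.0465).

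Of 5 such genes tested in the Kupffer gate 2 fell, where 7.79% of all genes fell. Pvt1 went from 38.7 and 41.4 to 25.5 and 23.5 CPM (log2 -0.70, adjusted p = 0.0499), opposite in sign to its endothelial change (the difference between the gates was not tested for this gene), and Mlxip from 74.7 and 47.1 to 34.8 and 33.9 CPM (log2 -0.84, adjusted p = 0.0449). DESeq2 called neither. In the stellate gate 0 of 5 and in the monocyte gate 0 of 6 were called by edgeR's quasi-likelihood test. At an unadjusted p under 0.05 there was 1 in each, beside 25.9% and 24.3% of all genes. DESeq2 called 0 and 1, beside 6.78% and 8.86% of all genes. Mnt, which binds Max in resting and growing cells alike, lay between 21.7 and 39.9 CPM over all gates and mice and was called in none of the 4 gates.

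Lists of genes known to respond to Myc, or to act with it, were then read from the same fits. They were chosen with earlier results of these data known, so their direction is not independent support. In the Kupffer gate 20 of 39 ribosome biogenesis genes rose and 0 fell, with a median log2 difference of 0.93, where the median of all genes was -0.01 and 7.55% of all genes rose. Nop58, a core protein of the particles that methylate ribosomal RNA, went from 34.2 and 41.9 to 148 and 127 CPM (log2 1.86, adjusted p = 0.00077). Pa2g4, a growth-regulated nucleolar protein, went from 121 and 118 to 373 and 299 CPM (log2 1.49, adjusted p = 0.0013).

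Of 34 growth metabolism genes in the Kupffer gate 23 rose and 0 fell (median 0.89). Pkm, which makes pyruvate in glycolysis, went from 151 and 194 to 478 and 484 CPM (log2 1.48, adjusted p = 0.0013). Eno1, the enolase of glycolysis, went from 44.5 and 37.3 to 105 and 130 CPM (log2 1.52, adjusted p = 0.0018), but has near-identical copies in the genome that could share its reads. Of 21 cell cycle genes 11 rose and 0 fell (median 0.89), among them Cdt1 (log2 2.04, adjusted p = 0.0018) and Mcm4 (log2 2.16, adjusted p = 0.0027), which load the replicative helicase.

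The list of genes taken to be repressed by Myc with Miz1 went the other way in the Kupffer gate, and the part of Myc in this was not tested. There 11 of 14 fell and 0 rose, with a median of -1.36, beside 7.79% of all genes that fell. Klf4, a transcription factor of quiescent and differentiated cells, went from 531 and 647 to 218 and 196 CPM (log2 -1.51, adjusted p = 0.0012). Tsc22d3, a glucocorticoid-induced gene, went from 351 and 272 to 114 and 123 CPM (log2 -1.40, adjusted p = 0.0017). Of 16 genes from pathways that induce Myc 7 fell and 0 rose (median -0.69), among them Jun (log2 -1.57, adjusted p = 0.0053) and Egr1 (log2 -2.14, adjusted p = 0.0070). Jun and Egr1 are immediate early genes that also rise when tissue is dissociated. The part of tissue handling in the inducer list and in the repressed list was not tested. The first 3 of these 5 lists had no gene called lower and the other 2 none called higher, also at an unadjusted p under 0.05. For the cell cycle list this did not hold in every fit that left out 1 mouse. DESeq2 called 15, 17 and 11 genes higher in the first 3 lists and 10 and 5 lower in the other 2. It called none of them in the reverse direction, and it called 8.8% of all genes in this gate.

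Of 26 genes for Myc cofactors and turnover 2 rose and 1 fell in the Kupffer gate, with Ruvbl2, a helicase of chromatin remodelling complexes, among those that rose (log2 0.72, adjusted p = 0.0457). The 3 calls are 11.5% of this list, beside 15.3% of all genes. The Kupffer counts depended on depth and mice. With cells thinned to 1500 UMIs the 5 lists above gave 7, 9, 4, 7 and 4 calls. Without CCl4 1 the ribosome, metabolism and repressed counts were 8, 13 and 6, and without CCl4 2 the metabolism, cell cycle, repressed and inducer counts were 15, 7, 4 and 3. Leaving out the cells richest in UMIs gave 12 ribosome and 7 repressed genes.

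**Figure D4:**
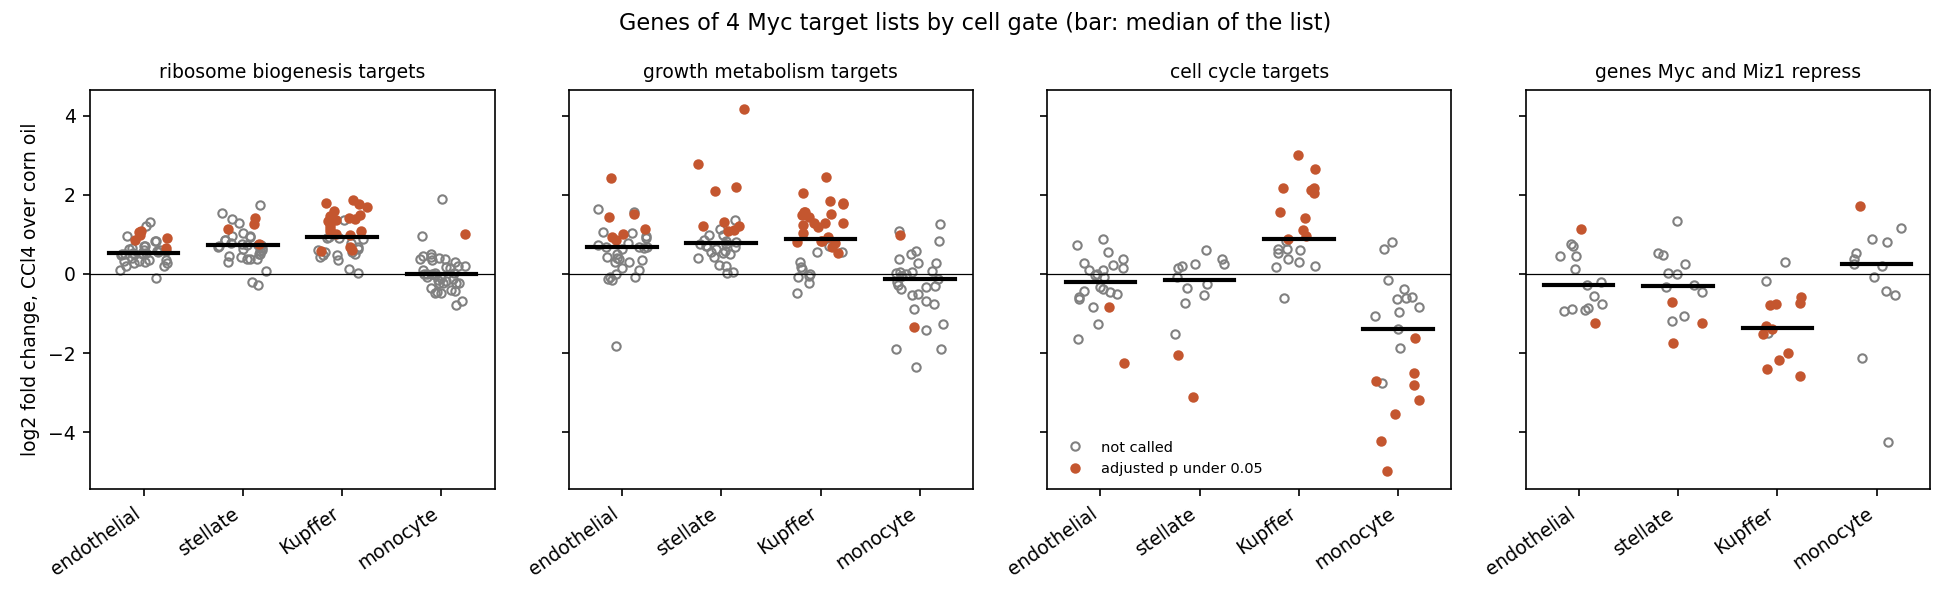
Log2 fold change, CCl4 over corn oil, of each tested gene of 4 Myc target lists in the 4 gates. Filled orange points are genes with an adjusted p under 0.05, open grey points are not called, and black bars are list medians. In the Kupffer gate 20 of 39 ribosome biogenesis genes and 23 of 34 growth metabolism genes are called higher and 11 of 14 repressed genes lower, while the endothelial gate has 6 of 40, 7 of 35 and 1 of 15.

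The same lists were counted in the endothelial gate, where 5.42% of all genes were called and 23.8% had an unadjusted p under 0.05. DESeq2 called 11.5% of all genes there. The difference between the gates was not tested over a list. Of 40 ribosome biogenesis genes 6 rose and 0 fell, with a median of 0.54, and 25 had an unadjusted p under 0.05, all higher. Gnl3, a nucleolar protein of proliferating cells, went from 48.4 and 46.8 to 115 and 82.5 CPM (log2 1.06, adjusted p = 0.0270), with Nop58 (log2 0.91, adjusted p = 0.0374) and Mybbp1a (log2 0.86, adjusted p = 0.0381) beside it. Of 35 growth metabolism genes 7 rose and 0 fell (median 0.68), where 2.85% of all genes rose. Slc1a5, a glutamine transporter, went from 7.93 and 6.58 to 41.9 and 36.6 CPM (log2 2.44, adjusted p = 0.0020), with Eno1 (log2 1.44, adjusted p = 0.0106) and Pkm (log2 0.86, adjusted p = 0.0199) next.

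No cell cycle gene was called higher in endothelial cells by edgeR's quasi-likelihood test. Of 24 tested 0 rose and 2 fell, with 2 higher and 6 lower at an unadjusted p under 0.05 and 1 higher and 5 lower by DESeq2. Over all genes and both directions, 23.8% had an unadjusted p under 0.05 and DESeq2 called 11.5%. Mki67, a marker of cycling cells, went from 28.6 and 21.4 to 7.30 and 3.07 CPM (log2 -2.26, adjusted p = 0.0248), and Ccnd1, cyclin D1, from 664 and 478 to 334 and 307 CPM (log2 -0.83, adjusted p = 0.0490). Of 15 repressed genes 1 fell, Ndrg2 (log2 -1.24, adjusted p = 0.0227), and 1 rose, Gadd45a, a stress and DNA damage gene (log2 1.15, adjusted p = 0.0322). Of 20 inducers Egr1 (log2 -0.97, adjusted p = 0.0406) and Jun (log2 -0.99, adjusted p = 0.0430) fell. Of 28 cofactor and turnover genes edgeR's quasi-likelihood test called 0, and DESeq2 called 0. At an unadjusted p under 0.05 there were 7, beside 23.8% of all genes.

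The endothelial counts moved with the setting. The ribosome count of 6 was 15 by DESeq2, 19 with no filter on low counts, and 13 when corn oil 1 was left out. It was 2 with corn oil 2 left out and 3 with CCl4 2 left out. Leaving out CCl4 1 gave 0, where 11 genes had an unadjusted p under 0.05. The metabolism count of 7 was 13 by DESeq2, 16 with no filter, 12 without corn oil 1 and 2 without CCl4 1.

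Within the endothelial gate, cells with and without a Myc UMI were set side by side after thinning to 1500 UMIs, as a description chosen after the results above were known. Thinning was drawn anew for this, so the numbers of cells with a Myc UMI differ somewhat from the shares given above. In CCl4 1 650 cells with Myc had 2479 CPM of ribosome biogenesis genes summed and 2435 cells without had 2524, a ratio of 0.98. In CCl4 2 the ratio was 1.06, on 305 and 2490 cells. The growth metabolism ratios were 1.02 and 1.05, and those of repressed genes 0.95 and 0.94. Mxd4 gave 1.08 and 1.04 and Max 0.97 and 0.89. Mxi1 gave 0.81 and 0.59, on 42 and 12 UMIs in the cells with Myc, and in the corn oil mice 1.57 and 2.03, on 6 and 10 UMIs. At this depth 1 UMI separates the sets, and in CCl4 1, 53.9% of cells had a Myc UMI before thinning.

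In the stellate gate 4 of 36 ribosome biogenesis genes rose and 0 fell (median 0.73), and 9 of 32 growth metabolism genes rose and 0 fell (median 0.78), where 5.29% of all genes rose. Nop58 went from 66.2 and 76.9 to 180 and 159 CPM (log2 1.25, adjusted p = 0.0061), and Gnl3 had a log2 difference of 1.43 (adjusted p = 0.0066). Srm, which makes the polyamine spermidine, went from 13.7 and 9.42 to 95.6 and 64.5 CPM (log2 2.78, adjusted p = 0.0020), and Ldha had 1.32 (adjusted p = 0.0071), with processed copies that could share its reads. Top2a and Mki67, of 14 cell cycle genes, fell (log2 -2.04 and -3.10, adjusted p = 0.0039 and 0.0130).

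Of 14 repressed genes in the stellate gate 3 fell and 0 rose, where 4.91% of all genes fell, led by Tsc22d3 (log2 -1.74, adjusted p = 0.0054) and Ndrg2 (log2 -1.25, adjusted p = 0.0241). Of 17 inducers 2 rose and 2 fell. Osmr, the oncostatin M receptor, went from 62.8 and 61.2 to 204 and 204 CPM (log2 1.72, adjusted p = 0.0015), and Tcf7l2, a Wnt pathway transcription factor, had a log2 difference of -1.16 (adjusted p = 0.0085). Among 22 cofactor and turnover genes 3 rose, among them Pim1, a kinase that stabilizes Myc (log2 0.88, adjusted p = 0.0291), and 1 fell. Without CCl4 1 the ribosome and metabolism counts were both 0, with 6 and 10 genes at an unadjusted p under 0.05. Without CCl4 2 they were 1 and 2. Without corn oil 1 the ribosome count was 12.

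In the monocyte gate, where the Myc groups overlapped, 1 of 39 ribosome biogenesis genes rose, Tcof1 (log2 1.01, adjusted p = 0.0431), and 0 fell (median 0.00, beside 0.04 over all genes). Among 33 growth metabolism genes Slc3a2 rose (log2 0.98, adjusted p = 0.0421) and Paics fell (log2 -1.35, adjusted p = 0.0186). Of 21 cell cycle genes 8 fell and 0 rose (median -1.40), where 3.06% of all genes fell. Mcm6 went from 86.4 and 95.6 to 10.9 and 14.4 CPM (log2 -2.82, adjusted p = 0.0103), and Top2a had a log2 difference of -4.23 (adjusted p = 0.0123). Btg1, an antiproliferative gene, was the 1 of 13 repressed genes called and rose (log2 1.72, adjusted p = 0.0181), where 2.4% of all genes rose. Of 18 inducers Tcf7l2 rose (log2 1.43, adjusted p = 0.0236) and Hes1, a Notch target, fell (log2 -1.69, adjusted p = 0.0161), and of 25 cofactor genes Ppp2r5a rose (log2 1.00, adjusted p = 0.0417).

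These monocyte calls rest on 43 and 23 corn oil cells. Without CCl4 1, and without CCl4 2, edgeR's quasi-likelihood test called 0 genes of any kind in this gate, with 711 and 697 at an unadjusted p under 0.05.

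Over the 16 gate-by-mouse sums, the 5 genes most like Myc by Pearson correlation of log2(CPM + 1) were Polr3d (r = 0.79), a subunit of RNA polymerase III, Hyou1 (0.73) and Pdia4 (0.71), protein folding factors of the endoplasmic reticulum, Impdh2 (0.72), which limits guanine nucleotide synthesis, and Prmt1 (0.71), an arginine methyltransferase. They came from 9698 ranked genes. Polr3d in the endothelial gate was 9.16, 6.84, 19.0 and 14.6 CPM, and in the monocyte gate 17.8, 11.6, 14.3 and 10.9 CPM. The partners were unlike Myc on this measure, with r from -0.16 for Mxi1 to 0.22 for Mycn. The 16 sums come from 4 mice and share depth and treatment within a mouse, so the coefficients describe these sums only.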

How the data were processed

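Liver cells were freed by enzyme perfusion (pronase, then collagenase), a spin at 50 g took out hepatocytes, and a density gradient took out dead cells, per the labels' protocols. The authors deposited UMI counts per gene and cell, made with the BD WTA Rhapsody Analysis Pipeline 1.9.1 on GRCm38 with GENCODE vM19, per the file headers. All values here are computed from these deposited counts.

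Cells were kept from 200 detected genes upward and up to 25% mitochondrial UMIs, and gated on marker UMIs. Cells in more than 1 gate were dropped as candidate doublets, and no doublet caller was run. Between 48 and 74 cell indices were shared by each pair of libraries. Counts were summed per gate and mouse and fitted with edgeR 4.0.16 (TMM, filterByExpr, quasi-likelihood test, Benjamini-Hochberg over all genes) in R 4.3.3. Alternatives were DESeq2 1.42.0, no composition factor, no filter, the replicate number as a block, at most 15% mitochondrial UMIs, doubled gate thresholds, cells thinned to 1500 UMIs, cells above the 95th percentile of UMIs left out, and each mouse left out. CPM of marker sums, of parts of the endothelial gate, of cells outside the gates and for the likeness to Myc have no composition factor. The scripts were tested on simulated data. Single values used Python 3.11.15 and scipy 1.17.1.

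The members and gene lists were chosen with earlier results of these data known. Named genes were all members and other network genes, the 3 called genes of lowest p per list in the endothelial gate and the 2 in each other gate, and the 5 genes most like Myc. A gene that this rule names is not reported here. The marker split of cells outside the gates, the Myc-positive comparison and the alternatives for the tests between gates were chosen after seeing the data.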

Additional observations from a re-analysis of the deposited data

Results flagged for a closer look

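The CCl4 effect on Mxd1 differed between the Kupffer and endothelial gates by -1.57 on the log2 scale, by a test of the interaction (adjusted p = 0.0395, edgeR's quasi-likelihood test). That call was lost without corn oil 1 (adjusted p = 0.0650), without corn oil 2 (0.154) and without CCl4 1 (-0.75, 0.430). The CCl4 effect on Mxd1 also differed between the monocyte and Kupffer gates, by 2.63 (adjusted p = 0.0199, edgeR's quasi-likelihood test). It was called in 1 of the 4 fits that left out a mouse, with adjusted p-values from 0.0186 to 0.222.

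Cells that fell in more than 1 gate were in no comparison, and their Myc level was 29.5 and 41.7 CPM in the corn oil mice and 121 and 83.1 CPM in the CCl4 mice. The lower CCl4 mouse, at 83.1 CPM, was thus above both corn oil mice. Many of these cells also met the endothelial gate. Their Myc level is therefore not independent of the endothelial Myc change by which the family was chosen. The make-up of these cells differed between the groups. Cells in both the endothelial and monocyte gates numbered 10, 12, 169 and 119, those in both the endothelial and Kupffer gates 387, 611, 217 and 101, and those in both the endothelial and stellate gates 313, 369, 152 and 45. The part of this make-up in the Myc level was not tested.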

How the results depend on the processing

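The number of genes called (726 endothelial, 916 stellate, 1522 Kupffer, 557 monocyte) was 1482, 609, 873 and 903 with DESeq2 and 2302, 1577, 2321 and 2061 with no filter on low counts. With cells thinned to 1500 UMIs it was 477 in the stellate, 486 in the Kupffer and 306 in the monocyte gate. Leaving out 1 mouse gave 183 to 894 endothelial, 107 to 1345 stellate, 585 to 1464 Kupffer and 0 to 1658 monocyte genes. The lowest endothelial and stellate counts came without CCl4 1 and the lowest Kupffer count without CCl4 2. The monocyte count was 0 without either CCl4 mouse, and 1658 without corn oil 2.

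With the replicate number as a block 2051 endothelial genes were called, and Myc in the Kupffer gate was called at 0.98 (adjusted p = 0.0372, edgeR). To compare mice of the same number, the mean of each group was subtracted from the log CPM of each gene. The deviations left in corn oil 1 and CCl4 1 were then correlated over genes. The coefficients were 0.0817, -0.00243, 0.0930 and 0.168 in the endothelial, stellate, Kupffer and monocyte gates. With 2 pairs the numbers do not pair the mice.

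The log2 difference of Myc was called at 0.77 with no filter in the stellate gate, and in the Kupffer gate at 1.01 with no composition factor and 1.02 with no filter, with 0.52 to 1.53 when 1 mouse was left out. In the monocyte gate it was 0.021 after thinning. The stellate Max difference was -0.10 at 15% mitochondrial UMIs and -0.25 after thinning, and the Kupffer Mxi1 difference 0.25 after thinning. With no filter the stellate minus endothelial differences were 0.052 for Max and 0.015 for Mxd4. With 1 mouse left out, endothelial differences ran from -0.059 to 0.90 for Mycn, -0.20 to 0.29 for Max and -0.11 to 1.40 for Mxd1, and the Max difference from -0.21 to 0.21 in the stellate and -0.25 to 0.075 in the Kupffer gate. Of the differences between gates, with alternatives chosen after seeing the data, stellate minus endothelial then ran from -0.93 to 0.11 for Mxd1 and -0.18 to 0.047 for Mxd4. Kupffer minus endothelial ran from -0.30 to 0.018 for Max, and monocyte minus endothelial from -0.020 to 0.32 for Mxd4. Kupffer minus stellate ran from -0.24 to 0.023 for Max and -0.13 to 0.74 for Myc, and monocyte minus Kupffer from -0.034 to 0.095 for Mxi1. The cause of these changes was not tested. Mycn and Mycl gave no endothelial value after thinning, where the filter removed them.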
